A study of Mus musculus with 4 samples.

Results

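The cAMP response element (CRE) is the 8-base palindrome TGACGTCA, and the set described here is every promoter peak of open chromatin that carried a complete copy of it near its summit. A peak of the control female or the VEDS male list on chromosomes 1 to 19 was a member when an edge lay within 1 kb of a GENCODE vM21 transcription start site (TSS) and the 300 bp centred on its summit contained the palindrome. By this rule 417 of 10278 promoter peaks qualified in the control female list (4.06%, 95% Wilson interval 3.69 to 4.46) and 491 of 15340 in the VEDS male list (3.20%, 2.93 to 3.49), out of 64360 peaks deposited for all 4 libraries. Intervals here and in what follows cover counting error only, and windows of 1 list are not replicates of a genotype.

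The study compared open chromatin in the aorta of control mice (Col3a1+/+) and of VEDS mice (Col3a1G938D/+), which model vascular Ehlers-Danlos syndrome and carry a glycine substitution in 1 allele of the type III collagen gene, inherited through the germline. All mice were 60 days old and no drug was given to either genotype. Each genotype had 1 female and 1 male library, each made from the aortic nuclei of 2 mice pooled, with a single-cell ATAC kit whose reads were analysed in aggregate. The 4 lists were very unequal, with 21176 peaks in the control female, 41444 in the VEDS male, 1236 in the control male against 504 in the VEDS female. The long lists therefore differed in genotype and in sex at once, and these cannot be told apart, nor can either be told apart from depth. With 1 long list a genotype no test between genotypes was possible. All 5 smooth muscle markers examined (Acta2, Cnn1, Lmod1, Myh11, Tagln) had a promoter peak in both long lists and none had one in a short list. Leukocyte and adipocyte markers had none in any list, of 4 endothelial markers the VEDS male list alone held 2 (Kdr, Tie1), of 3 striated muscle markers the control female list held 1 (Ryr2) and the VEDS male list 2 (Ckm, Ryr2), and 2 of 4 fibroblast markers (Col1a1, Pdgfra) had one in each long list.

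As background, cAMP activates protein kinase A, which phosphorylates CREB, and CREB, CREM and ATF1 bind the CRE as leucine-zipper dimers. The palindrome contains a CpG and its methylation weakens binding, so CREs occupied in cells lie mostly in unmethylated CpG islands close to a TSS. Such promoters include rapidly inducible genes and many housekeeping genes. In arteries, cAMP is best known for relaxing smooth muscle and restraining its proliferation.

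The following sequences are CREs of genes from textbook lists that had a member window in a long list. The lists cover CREB targets, the CREB and ATF family, clock genes, cAMP signalling and the unfolded protein response. Each is 30 bases in the direction of the gene, on GRCm38 (mm10), from the RefSeq copy of that assembly, and the capitals mark the CRE.
Dusp1 (chr17:26508597-26508626, minus strand): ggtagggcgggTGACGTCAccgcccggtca
Sik1 (chr17:31856025-31856054, minus strand): agccgggccccTGACGTCAccgcccgcggt
Nr4a2 (chr2:57115067-57115096, minus strand): agccccagtcgTGACGTCAggtcggaaata
Ppargc1a (chr5:51553987-51554016, minus strand): ctgccttggagTGACGTCAggagtttgtgc
Areg (chr5:91139527-91139556, plus strand): gggctggtccgTGACGTCAcgggcggtggc
Vgf (chr5:137030194-137030223, plus strand): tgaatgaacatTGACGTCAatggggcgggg
Polb (chr8:22653432-22653461, minus strand): agcctggcgcgTGACGTCAccgcgctgcgc
Ccna2 (chr3:36572033-36572062, minus strand): ggcgcttctggTGACGTCAcggactccgga
Csnk1d (chr11:120991313-120991342, minus strand): gctaggggaagTGACGTCAcagcgcgatgg
Csnk1e (chr15:79455589-79455618, minus strand): cggggcttgggTGACGTCAcgcccgcctcc
Hlf (chr11:90390908-90390937, minus strand): ggtgcgggcccTGACGTCActcttgtcagg
Pde7a (chr3:19311402-19311431, minus strand): gcgcggcgtcgTGACGTCAcggtggcggcg
Pde7b (chr10:20725166-20725195, minus strand): actaaacccttTGACGTCActctcgaaatg
Prkar1a (chr11:109650889-109650918, plus strand): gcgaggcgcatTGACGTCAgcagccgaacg
Creb5 (chr6:53287247-53287276, plus strand): ggaatcccacgTGACGTCAccgggggggtg
Ppp1r15a (chr7:45526262-45526291, minus strand): cgcctctccggTGACGTCAgcacagcgccg
Most of these have a G just before the CRE or a C just after it, a flank that is counted over all sites further on.

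The CREs of these windows crowded just upstream of the TSS. The 417 and 491 windows held 433 and 505 sites, and the median site centre lay at -25.5 bp in the control female list and at -26.5 bp in the VEDS male list (negative is upstream of the nearest TSS). Upstream sites made up 80.6% (76.6 to 84.0) and 79.8% (76.1 to 83.1). Within 50 bp of a TSS lay 58.9% and 57.2% of sites, within 100 bp 77.1% and 76.8%, and within 200 bp 88.5% and 88.3%. The window itself favours the TSS, since 78.2% and 70.7% of all positions searched were within 200 bp, so densities were computed per 10000 searched positions of the same list. The density was highest from 25 bp upstream to the TSS, at 3.59 (3.0 to 4.27, exact Poisson interval) in the control female and 3.02 (2.54 to 3.57) in the VEDS male. Over the 100 bp upstream it was 2.75 (2.44 to 3.10) and 2.48 (2.21 to 2.76), against 0.855 (0.654 to 1.1) and 0.680 (0.526 to 0.865) over the 100 bp downstream, with no overlap of the intervals in either list. From 75 to 200 bp downstream the control female windows held 2 sites and the VEDS male windows 7.

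**Figure D1:**
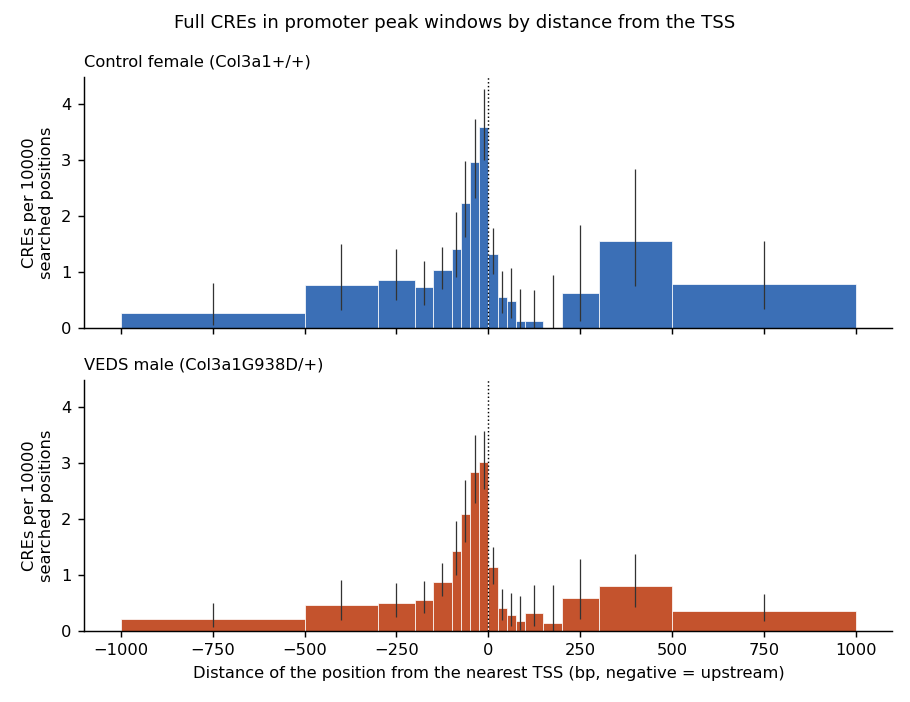
CRE sites per 10000 searched positions (y axis) by distance of the position from the nearest TSS (x axis, bp, negative upstream) in the control female (top) and VEDS male (bottom) promoter windows, with exact Poisson intervals as lines. Density climbs to 3.59 and 3.02 in the 25 bp before the TSS and drops at once beyond it, the same shape in both lists.

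In the annotation, 44.3% of control female sites and 43.8% of VEDS male sites lay upstream of every transcript or between genes, 28.9% and 27.1% in an untranslated exon, 19.2% and 20.4% in an intron, 6.70% and 6.73% in a noncoding exon, and 0.924% and 1.98% in coding sequence. Only 1 site in each list lay in sequence masked as a repeat. The sites ran from -1056.5 bp (near Id1, an inhibitor of bHLH factors) to 1059.5 bp (near R3hdm2) in the control female list and from -1315.5 bp (near Zc3h4) to 1267.5 bp (near Mxi1) in the VEDS male list.

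The CREs lay most often 20 to 40 bp to one side of the summit. The median distance from site to summit was 34.5 bp in the control female list and 30.5 bp in the VEDS male list. Within 10 bp of the summit were 31 of 433 sites (7.16%) and 30 of 505 (5.94%), while 115 (26.6%) and 176 (34.9%) were 20 to 30 bp from it. The most frequent single distance was 22.5 bp in the control female list (16 sites) and 23.5 bp in the VEDS male list (31 sites). From 20 to 40 bp lay 41.1% (36.6 to 45.8) and 48.5% (44.2 to 52.9) of sites. Sites at that distance had the summit downstream of them, along the gene of the nearest TSS, in 39.3% (32.4 to 46.7) and 45.3% (39.2 to 51.6).

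To see whether that spacing was shared by other words, the 64 palindromes of 8 bases with a central CG were scanned in the same windows. Of those with at least 100 sites, 20 in the control female list and 22 in the VEDS male list, the CRE ranked 1 in both for the share of sites 20 to 40 bp from the summit. That range was not planned and is where the CRE's own distances peak, which favours the CRE in this ranking. The rank is therefore a description and no test. Next among these came TCACGTGA, which contains the E-box bound by MYC, MAX, USF and TFE factors, at 34.3% and 35.0%. The ETS-like TTCCGGAA had 28.8% in the control female list and 19.1% in the VEDS male list. Over the other palindromes with at least 100 sites the median share was 14.4% and 15%. Some rarer palindromes had shares near that of the CRE, on few sites. TTACGTAA had 44.4% in the control female list (18 sites) and 26.3% in the VEDS male list (19 sites). ATGCGCAT had 38.6% (44 sites) and 33.3% (60 sites), and TTGCGCAA 14.6% (41 sites) and 38.6% (44 sites). The spacing was thus not particular to the CRE. At the summit itself the CRE was not scarcer than the other palindromes. The 10 bp bins just before and after it held 3.70% and 3.46% of control female CREs, against 2.96% and 2.67% of the other palindromes pooled. In the VEDS male list these bins held 3.17% and 2.77%, against 2.65% and 2.41%. By the share of promoter windows that held it the CRE ranked 2 and 4 of the 64, and by the share of its sites upstream of the TSS 4 and 5.

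**Figure D2:**
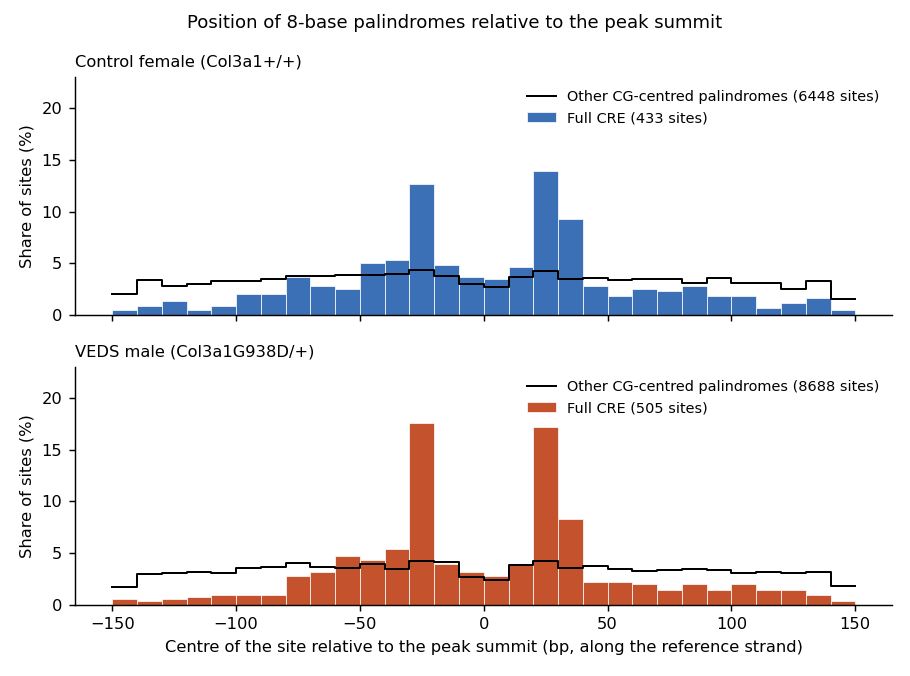
Share of CRE sites (bars, y axis, %) by position relative to the peak summit (x axis, bp, 10 bp bins) in the control female (top) and VEDS male (bottom) lists, with the 63 other CG-centred palindromes pooled as the black line. The bars rise at 20 to 30 bp on either side of the summit. They reach 12.7% and 13.9% in the control female against 17.6% and 17.2% in the VEDS male. At the summit itself they fall back but stay above the black line.

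The summit was not fixed between libraries. For the 399 sites that were members in both long lists it moved by a median of 21.0 bp, by at most 10 bp for 141 sites (35.3%), and stayed on the same side of the site for 295 (73.9%).

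The bases beside the palindrome also differed between CREs inside called peaks and the rest. Among CREs within 200 bp of a TSS that lay in a peak of both long lists (403 sites read from both strands, 806 flanks), the base before the CRE was G in 51.9% (48.4 to 55.3) and T in 5.96% (4.52 to 7.81). At CREs as near to a TSS but in neither long list the shares were 34.1% and 14.8% (816 flanks), and at CREs over 1 kb from a TSS and in neither list 30% and 21.7% (23592 flanks). A G before and a C after, which lengthens the palindrome to 10 bases, was found at 27.5% (111 of 403) of the first group and 5.77% of the last. Base composition differs between CpG-rich promoters and the rest of the genome, and its part in this was not tested.

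Across chromosomes 1 to 19 the genome held 13824 full CREs, of which 912 (6.60%) lay within 200 bp of a TSS. Of those 912, 44.4% (41.2 to 47.6) were inside a control female peak and 55.0% (51.8 to 58.2) inside a VEDS male peak. Over 1 kb from a TSS the shares were 1.09% and 2.2%. Near a TSS the share climbed with CpG density, from 2.79% and 7.26% with 0 to 4 CpG in the surrounding 200 bp to 72.2% and 86.1% with 20 or more. Read the other way, 757 of 20780 coding genes had a full CRE within 200 bp of a TSS. These had a promoter peak in 72.7% of cases in the control female list against 45.1% of genes without a CRE, and in 83.1% against 55.8% in the VEDS male list. Any TSS of a gene could supply the CRE or the peak, so they need not belong to the same TSS. Genes with more TSSs had more chances at both. Split by CpG in 400 bp the gap was in the same direction in each of 4 bins. With 0 to 9 CpG few genes had a CRE, and 4 of 36 (11.1%) had a peak against 3.87%, and 6 of 36 (16.7%) against 7.38%. With 10 to 19 CpG the intervals overlapped, at 30.3% (21.1 to 41.3) against 24.4% (22.8 to 26.2), and 46.1% (35.3 to 57.2) against 38.3% (36.4 to 40.2). With 20 to 29 they overlapped in the control female, at 70.2% (60.8 to 78.1) against 59.9% (58.1 to 61.8). They did not in the VEDS male, at 84.6% (76.5 to 90.3) against 74.1% (72.4 to 75.8). With 30 or more the shares were 83.2% (79.8 to 86.1) against 72.5% (71.5 to 73.4), and 92.4% (89.9 to 94.4) against 85.9% (85.2 to 86.6). In the short lists they were 1.45% against 1.39% (control male) and 1.72% against 1.40% (VEDS female).

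Presence in the lists followed peak strength. Of the control female members, 99.5% overlapped a VEDS male peak by at least 1 bp, where 98.2% of all promoter peaks of that list did. Of the VEDS male members, 82.3% (78.7 to 85.4) overlapped a control female peak, against 64.9% of all promoter peaks. When the promoter peaks of the VEDS male list were cut into 5 equal bins by −log10 q, members and other promoter peaks lay close together: from the strongest bin to the weakest, 100%, 95.3%, 81.8%, 49.3% and 12.5% of members overlapped a control female peak, against 99.8%, 95.8%, 78.4%, 38.8% and 11.4% of the others. CREs themselves were commoner in the stronger bins, from 4.66% and 4.89% of windows in the first bins to 1.04% in the last for the VEDS male and from 4.47% and 5.26% to 2.82% for the control female.

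**Figure D3:**
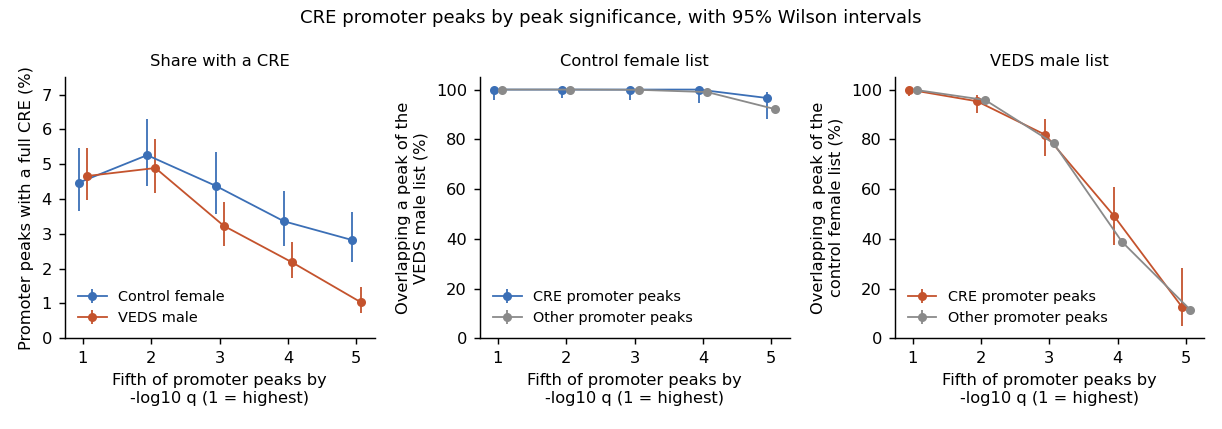
Left, share of promoter peaks with a full CRE (y axis, %) in 5 equal bins of −log10 q (x axis, 1 = strongest) for the control female (blue) and VEDS male (orange). Middle and right, share of CRE (coloured) and other (grey) promoter peaks that overlap a peak of the other long list, with 95% Wilson intervals. In the VEDS male list both fall together from about 100% to 12.5% and 11.4%.

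Counted by site, the lists shared 399 of 539 different CREs. Of the 34 that were members in the control female alone, 29 lay inside a VEDS male peak but over 150 bp from its summit, and 2 had no VEDS male peak within 150 bp. Of the 106 in the VEDS male alone, 87 had no control female peak within 150 bp. The same count by site was not made for other promoter peaks, of which many also lacked a control female peak (64.9% of all VEDS male promoter peaks overlapped one). Peaks of the shared sites had a median of 19 fragments at the summit in the control female against 49.0 in the VEDS male. Those 87 VEDS male sites had a median of 22.0 (range 8 to 56). Over genes, 387 of 519 had a member window in both lists.

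Member peaks were somewhat stronger and wider than other promoter peaks, more so in the VEDS male list. Median width was 294 bp against 281 bp in the control female and 460 bp against 373 bp in the VEDS male. Median fold enrichment over the local background was 9.10 against 8.28, and 10.9 against 8.44. Median −log10 q was 13.8 against 11.8, and 31.6 against 20.4. GC content was equal in the control female (63.3% in both) and 62.7% against 62.0% in the VEDS male, while CpG counts per 300 bp were 25 against 23 and 25 against 21.

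Other words in the same windows, searched on both strands, gave few contrasts. The AP-1 site (TGAGTCA, its reverse complement included), bound by FOS and JUN dimers, was in 2.16% (1.14 to 4.05) of control female members against 4.87% (4.46 to 5.31) of the other promoter windows, and in 1.63% against 5.60% in the VEDS male. ZBTB33's TCTCGCGA was in 4.08% (2.56 to 6.43) against 2.51% (2.22 to 2.84), and 3.05% (1.86 to 4.98) against 1.73% (1.53 to 1.95), with overlapping intervals. The GC box (GGGGCGGGG) was in 23% against 22.6%, and 22.0% against 19.1%. TATAAA was in 6.95% against 4.65%, and 6.52% against 5.35%, and its intervals overlapped in both lists. Beyond the full palindrome, a TGACG core was found in 32.1% against 32.9%, and 33.8% against 28.6%. The amino acid response element TGATGCAA was in 0 of 417 and 0 of 491 member windows.

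The classic CREB targets were the gene list with the largest share of members. Of 47 listed genes, 34 had a control female promoter peak and 6 of those were members (17.6%, 8.35 to 33.5), and 36 had a VEDS male promoter peak and 10 were members (27.8%, 15.8 to 44.0). Among all coding genes with a promoter peak the shares were 3.97% (380 of 9582) and 3.77% (445 of 11808). These genes are known for this element, so the count describes which textbook CREs lay in aortic peaks and is no independent evidence. Shared by both lists were Ccna2, Crem, Dusp1, Gem, Polb and Sik1, and the VEDS male list added Areg, Nr4a2, Ppargc1a and Vgf. None of the 4 added genes had a control female peak within 150 bp of the CRE. By peak overlap, only 64.9% of all VEDS male promoter peaks had a control female peak. The 4 genes were not tested against that share.

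Ccna2 (cyclin A2, needed for S phase and mitosis) had the strongest of these peaks. Its CRE lay 83.5 bp upstream of the TSS, and its peak ranked 1290 in the control female list (13.5-fold enrichment, −log10 q 27.3, 31 fragments at the summit) and 1035 in the VEDS male list (17.2-fold, 70.3, 78 fragments). Dusp1, a phosphatase that switches off p38 and JNK, carried its CRE 92.5 bp upstream, with 32 fragments in the control female against 64 in the VEDS male. Its fold was low, 5.68 and 4.69. Sik1, a salt-inducible kinase that holds CREB coactivators in the cytoplasm, had the most distant CRE of the group, 235.5 bp upstream, with 20 and 47 fragments. Gem, a small GTPase that inhibits calcium channels, had 13 and 47 fragments and ranked 13732 and 7915. Polb, the base excision repair polymerase, had its CRE 11.5 bp upstream with 13 and 34 fragments. In all of these the peak was present in both long lists and in neither short list.

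Of the 4 genes in the VEDS male list alone, Nr4a2 (a nuclear receptor induced by cAMP) had 55 fragments and −log10 q 28.4, against VEDS male member medians of 44 and 31.6. Nr4a2 and Ppargc1a had a control female promoter peak elsewhere within 1 kb of a TSS, and Areg and Vgf had none. Vgf, a secreted neuropeptide precursor, had 32 fragments (16.8), Ppargc1a, the coactivator of mitochondrial biogenesis, 15 (6.8) and Areg, an EGF receptor ligand, 8 (2.6). Areg ranked 39909 of 41444, near the bottom of the list.

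Upstream sequence is given in full for 2 of these promoters, because they show how the element is placed. The 160 bases before the TSS are printed in the direction of the gene, with the CRE in capitals.
Dusp1 (chr17:26508520-26508679, minus strand): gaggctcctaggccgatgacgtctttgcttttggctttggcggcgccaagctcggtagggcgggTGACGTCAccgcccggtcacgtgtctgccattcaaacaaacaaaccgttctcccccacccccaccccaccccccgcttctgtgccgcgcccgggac
Nr4a2 (chr2:57115039-57115198, minus strand): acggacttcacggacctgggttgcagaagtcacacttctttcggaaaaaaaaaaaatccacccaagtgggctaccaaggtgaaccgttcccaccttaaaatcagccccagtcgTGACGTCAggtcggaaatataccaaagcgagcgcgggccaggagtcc
In Dusp1 the CRE stands 96 to 89 bases before the TSS, between GC boxes (GGGCGG on either strand) that end 98 bases and start 88 bases before it, and a further TGACG lies at 144 to 140 bases. In Nr4a2 the CRE is at 47 to 40 bases, with none of these other words in the stretch.

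Few genes of the pathway itself were members, at shares whose intervals include those of all coding genes (3.97% and 3.77%). Of 25 CREB and ATF family members and coactivators, 20 and 21 had a promoter peak and 2 in each list were members, Crem and Creb5 (10%, 2.79 to 30.1, and 9.52%, 2.65 to 28.9). Crem, whose internal promoter makes the repressor ICER from a cluster of CREs, had sites at -3.5 and -39.5 bp of its TSSs in both lists, 67 bp apart, in a peak of 19 fragments (control female) and 43 fragments (VEDS male). The VEDS male list held a further Crem site at -55.5 bp in a separate peak of 18 fragments, with no control female peak near it. Creb5, a relative of ATF2, had its CRE 8.5 bp upstream with 16 and 37 fragments. Of 44 cAMP signalling genes, 2 of 33 with a promoter peak were members in the control female (6.06%, Pde7a and Prkar1a) and 2 of 36 in the VEDS male (5.56%, Pde7a and Pde7b). Pde7a and Pde7b are cAMP phosphodiesterases and Prkar1a is the regulatory subunit of protein kinase A. Pde7a had 10 and 30 fragments, and Pde7b 29 in the VEDS male with no control female peak near its CRE. Prkar1a was a member in the control female only (20 fragments), and in the VEDS male its CRE was inside a peak but over 150 bp from the summit.

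All 21 clock genes had a promoter peak in both long lists, and 2 (9.52%, 2.65 to 28.9) and 3 (14.3%, 4.98 to 34.6) were members. These were Csnk1d and Csnk1e in both lists, the casein kinases that phosphorylate PER proteins, and the PAR-bZIP factor Hlf in the VEDS male alone (33 fragments). Csnk1d had its CRE 2.5 bp downstream of the TSS with 14 and 30 fragments. Csnk1e had 15 and 16 fragments, which placed it at rank 7611 in the control female but 25666 in the VEDS male. Of 28 genes of the unfolded protein response 27 had a promoter peak in each list and 1 (3.70%) was a member, a share near that of all coding genes. It was Ppp1r15a (GADD34, which reverses the translation block), with 25 and 64 fragments. Of a list of 64 of the genes that the study names, 0 of 52 with a control female promoter peak and 0 of 60 with a VEDS male one were members, and of 29 smooth muscle contractile genes 0 of 23 and 0 of 28. These zeros allow shares of up to 6.88%, 6.02%, 14.3% and 12.1% (upper Wilson limits), which still includes the 3.97% and 3.77% of all coding genes. The lists are not complete, and 2 further genes that the study names, Lmcd1 and Myl6, were members in both long lists (picked out after their values were seen). The CRE of Fn1, which the study also names, lay in a member window of both lists but was assigned to an antisense gene. Lmcd1, a LIM-domain cofactor, had its CRE at -126.5 bp in a peak of 34 fragments in the control female list and 104 in the VEDS male list. Myl6, a myosin light chain, had it at -3.5 bp, with 37 and 75 fragments.

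**Figure D4:**
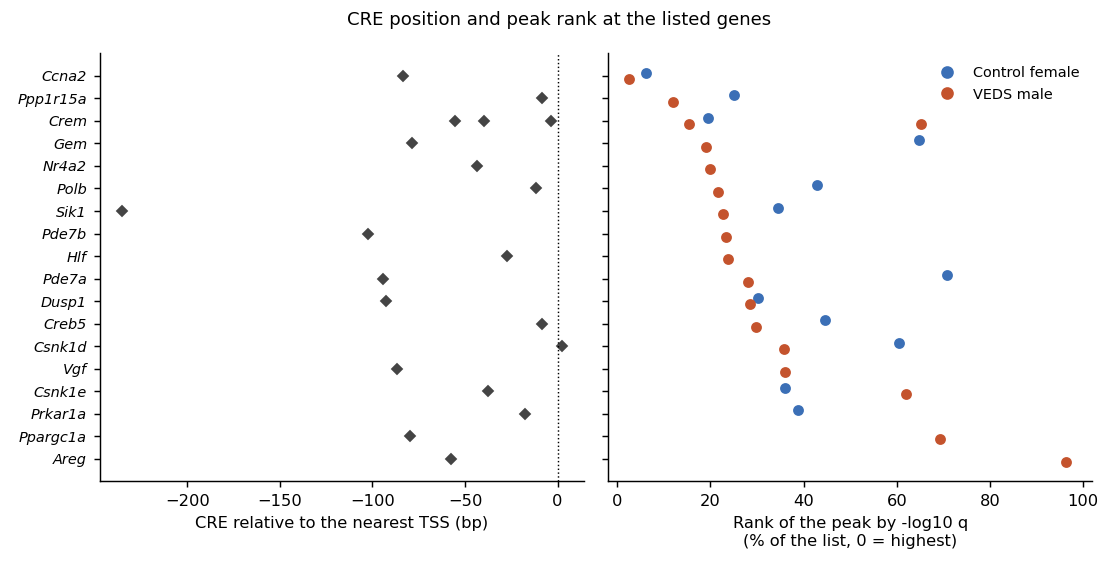
Left, position of each CRE relative to the nearest TSS (x axis, bp) for the 18 listed genes with a member window in a long list. Right, rank of the peak by −log10 q as a percentage of its list (x axis, 0 = highest) for the control female (blue) and VEDS male (orange). All sites but that of Csnk1d are upstream and all but that of Sik1 within about 100 bp, and 6 genes and 1 Crem peak have an orange point with no blue one beside it. Of all VEDS male promoter peaks, 64.9% overlap a control female peak.

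Some textbook CREs lay in no called peak. Sst (somatostatin), Crh (corticotropin-releasing hormone) and Th (tyrosine hydroxylase), genes of neurons and endocrine cells, have a full CRE at 69.5, -158.5 and -22.5 bp of their own TSS, and none of these sites was in a peak of either long list. The CRE of Odc1 at -210.5 bp was in no peak either, although the gene had a promoter peak. The CREs of Fn1 (fibronectin, -131.5 bp from its own TSS) and Cycs (cytochrome c, -196.5 bp) did lie in member windows of both lists. They were assigned to antisense genes whose TSS was 3.5 bp from the site, and so do not count among the targets above. Among the listed study genes and contractile genes, Rbpms, Fbln2 and Mylk had a full CRE at -3.5, 380.5 and 408.5 bp of their own TSS. None of these sites was in a peak of either long list.

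Protein-coding genes were nearest to 380 of 417 sites' windows in the control female (91.1%) and to 446 of 491 in the VEDS male (90.8%). Counted from the summit in place of the site the shares were 90.9% and 91.2%, against 88.3% and 85.3% of other promoter peaks. Coding TSSs on both strands within 1 kb, a bidirectional arrangement, were found at 14.9% (11.8 to 18.6) of control female members against 11% (10.4 to 11.6) of other promoter peaks and at 12.2% (9.61 to 15.4) against 8.63% (8.19 to 9.09) in the VEDS male. Noncoding members included Gas5 and Snhg15, hosts of small nucleolar RNAs, and Rn7s1 and Rn7s2, which encode the RNA of the signal recognition particle. Gas5 had 35 and 73 fragments with its CRE at -39.5 bp. Rn7s1 and Rn7s2 both had the CRE at -48.5 bp, with 40 and 29 fragments in the control female against 82 and 75 in the VEDS male, and as near-identical genes they may share reads. Meg3 and Pvt1, long noncoding RNAs, were in the VEDS male list alone with 13 and 17 fragments.

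Grouped by gene name, most classes held members at about the share of all coding genes. Zinc finger proteins, many of them KRAB repressors, contributed the largest number, 21 of 290 with a promoter peak in the control female (7.24%, 4.78 to 10.8) and 21 of 359 in the VEDS male (5.85%, 3.86 to 8.78). Their CREs hugged the TSS, with 13 of 22 and 15 of 22 sites within 20 bp of it against 33.9% and 31.7% of all sites, and 9 and 10 of the 21 genes were on chromosome 13, where 11.7% and 11.4% of all zinc finger genes with a promoter peak lay. Neighbouring zinc finger genes are copies of each other, so these are not independent. Oxidative phosphorylation gave 5 of 82 and 5 of 88, the same genes in both lists: Atp5d, Ndufa10, Ndufb2, Sdhb and Uqcrfs1, from complexes I, II, III and V. Sdhb, the iron-sulphur subunit of succinate dehydrogenase, was the strongest with 43 and 84 fragments. Splicing and RNA processing gave 7 of 123 and 7 of 130, and cytosolic ribosomal proteins 4 of 72 and 4 of 73 (Rpl13, Rpl26, Rpl27a and Rps9). Autophagy gave 3 of 28 in each list, namely Atg5, needed to lipidate LC3, Atg16l2, a relative of its partner ATG16L1, and Map1lc3a, an LC3 itself. Solute carriers gave 4 of 144 (2.78%, 1.09 to 6.92) and 4 of 190 (2.11%, 0.822 to 5.29). These 4 were of the mitochondrial Slc25 family, but how many of the 144 and 190 belong to it was not counted. Aminoacyl-tRNA synthetases gave 0 of 34 in each list (upper Wilson limit 10.2%). Collagens, laminins, integrins and matrix proteases gave only Adamts6, at -783.5 bp, of 47 (2.13%, 0.377 to 11.1) and 83 (1.20%, 0.213 to 6.51). Apart from zinc finger proteins, the intervals of the classes counted here include the 3.97% and 3.77% of all coding genes.

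**Figure D5:**
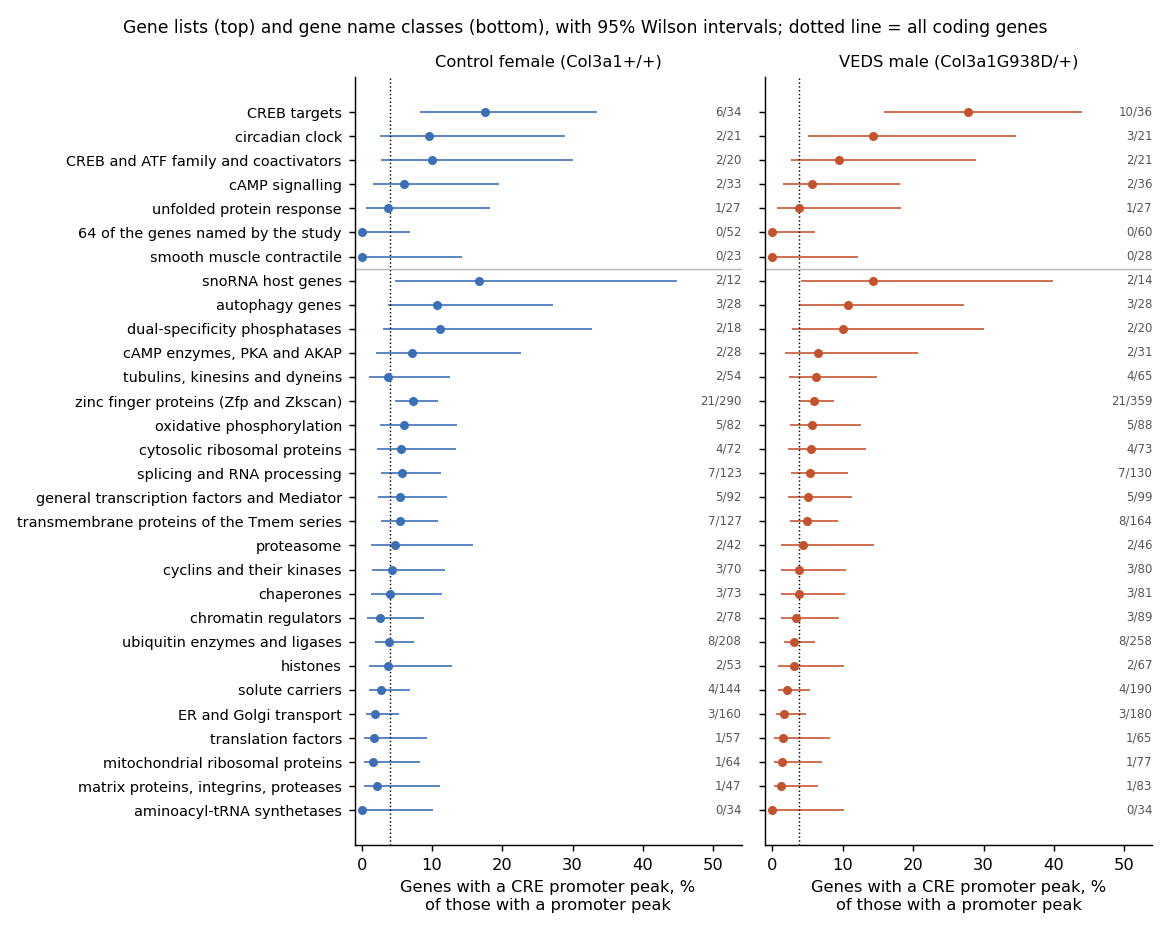
Percentage of genes with a promoter peak that had a member window (x axis) for textbook lists (upper rows) and gene-name classes (lower rows) in the control female (left) and VEDS male (right), with 95% Wilson intervals and counts at the right. The dotted line marks all coding genes, 3.97% and 3.77%. CREB targets stand highest of the lists at 17.6% and 27.8%, and the lists of 29 smooth muscle contractile genes and of 64 of the study's genes stand at 0.

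Pet100, an assembly factor of cytochrome c oxidase, was the strongest member in the control female (rank 81, 19.7-fold, 50 fragments) and ranked 570 in the VEDS male (87 fragments). Habp4 ranked 83 and 1468 with 46 and 74 fragments. The promoter of Stat3, a cytokine-activated transcription factor, had its CRE 281.5 bp upstream and ranked 95 and 301 with 56 and 114 fragments. In the VEDS male the first place went to the promoter shared by E230015B07Rik and Aplf (104 fragments), which in the control female ranked 1925 (27 fragments). Stard3nl, a late endosome protein, followed at rank 141 (95 fragments) with rank 320 and 38 fragments in the control female, and Ing4, a chromatin reader, at rank 169 (100 fragments) with rank 1089 and 30 fragments.

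The short lists held few members of their own, 6 of 267 promoter peaks in the control male against 4 of 247 in the VEDS female. Of control female members 1.20% overlapped a control male peak and 2.16% a VEDS female peak, against 2.38% and 2.39% of all promoter peaks there. Of VEDS male members 1.22% and 1.63% did, against 1.60% and 1.58%. Members were thus not found in the short lists more often than promoter peaks in general. Mdh2 (mitochondrial malate dehydrogenase), Stat3 and 1110020A21Rik, which starts next to the phosphatase gene Ppm1b, were the member promoters that overlapped a peak in all 4 lists. Mdh2 had 48 fragments in the control female, 100 in the VEDS male, 8 in the control male against 7 in the VEDS female. 1110020A21Rik had 62, 118, 13 and 10 in the same order. Stat3 had 56, 114, 9 and 8, but in the short lists its CRE fell outside the summit window. Klf11, a TGF-beta-inducible repressor, was a member in the VEDS male (47 fragments) and the control male (6 fragments) with no control female peak within 150 bp of the CRE. Since a short list holds only its strongest peaks, absence from one says nothing about openness. The strong promoters' CREs are shown for comparison with those of the inducible genes, in the same format.
Stat3 (chr11:100939807-100939836, minus strand): ttaaagtgtctTGACGTCAcgcactgccag
Mdh2 (chr5:135778511-135778540, plus strand): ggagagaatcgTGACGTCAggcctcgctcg
Pet100 (chr8:3621447-3621476, plus strand): gcgccggaagaTGACGTCAcagacccgggt
Habp4 (chr13:64161740-64161769, plus strand): aaagtggggcgTGACGTCAcagacaccggt
Ing4 (chr6:125039587-125039616, plus strand): gcgacttcgcgTGACGTCAtgcctgtcgca
Klf11 (chr12:24651771-24651800, plus strand): atttccagccaTGACGTCAcccgaatccag

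A pair of CREs in 1 window was found in 16 control female members (3.84%, 2.38 to 6.14) and 14 VEDS male members (2.85%, 1.71 to 4.73). In the control female the spacing from start to start ran from 16 to 192 bp with a median of 56.5 bp, and 7 pairs were at most 50 bp apart. The other pairs were members in both lists, but those of BC048403 and Rnf44 in the control female alone. Close pairs that lie outside exons are printed because their spacing can be read from them.
BC048403 (chr10:121739652-121739691, plus strand): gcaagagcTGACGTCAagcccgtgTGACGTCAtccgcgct
Braf (chr6:39725529-39725570, minus strand): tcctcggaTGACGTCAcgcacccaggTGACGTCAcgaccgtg
Heca (chr10:17948169-17948228, minus strand): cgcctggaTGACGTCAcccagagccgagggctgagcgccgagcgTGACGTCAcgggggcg
Dusp8 (chr7:142095332-142095399, minus strand): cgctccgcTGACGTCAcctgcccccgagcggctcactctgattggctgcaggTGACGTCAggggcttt
Tead1 (chr7:112679233-112679304, plus strand): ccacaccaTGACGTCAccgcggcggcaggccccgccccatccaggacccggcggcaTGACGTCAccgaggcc
The CREs of Braf, a RAF kinase, stood 18 bp apart in a peak of 18 fragments (control female) and 48 fragments (VEDS male). BC048403 had 16 bp between starts, in a weak peak of 9 fragments. Those of Heca, Dusp8 and Tead1, the last a Hippo pathway factor, were 36, 44 and 48 bp apart, with 17, 23 and 11 fragments in the control female and 46, 57 and 37 in the VEDS male. Dusp8 is in the same phosphatase family as Dusp1.

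Some members were near copies of each other, and whether their reads could be told apart was not tested. In 5 families of sites the bases around the CRE were alike, down to 80.8% identity for Mir670hg and Gm3294. For Mterf1a and Mterf1b, and for Zfp959 and Zfp119b, they were identical.
Mterf1a (chr5:3893966-3893995, minus strand): cgccgggctagTGACGTCAcctctgcgcca
Mterf1b (chr5:4192298-4192327, plus strand): cgccgggctagTGACGTCAcctctgcgcca
Zfp959 (chr17:55892402-55892431, plus strand): atccttgttgcTGACGTCAccatgcagtga
Zfp119b (chr17:55944927-55944956, minus strand): atccttgttgcTGACGTCAccatgcagtga
Zfp938 (chr10:82240949-82240978, minus strand): atccctgatgcTGACGTCAccatgcagtga
Mterf1a and Mterf1b, mitochondrial transcription terminators in inverted copies on chromosome 5, were in both lists with 20 and 19 fragments in the control female against 38 and 49 in the VEDS male. Zfp959 and Zfp119b were members in the control female alone (11 and 13 fragments) and their relative Zfp938 in the VEDS male alone (10 fragments).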

How the data were processed

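Nuclei were isolated from pooled aortae and ATAC-seq libraries were prepared with a droplet single-cell kit. Per the study's methods the authors removed duplicates with the cell barcode in view, shifted reads to Tn5 cut sites, ran MACS2 in its narrow mode on mm10 (GRCm38) and excluded blacklisted regions. Each deposited list belongs to 1 library. The aligner is not given in the sources used here. For each peak the deposited lists hold the fold enrichment at the summit (a ratio to the local background), the −log10 p and −log10 q, and an integer score derived from −log10 q that was not used. Read totals per library were not used here, so depth is judged from the number of peaks and from fragments at the summit, which were solved from the fold and the −log10 p of each peak as the pileup that gives both.

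Peaks on chromosomes 1 to 19 were joined to TSSs of all GENCODE vM21 transcripts, and 300 bp windows around summits were read from the RefSeq copy of GRCm38 and searched for the CRE. No peak reached past the end of a chromosome. Distances run from the centre of a site to the nearest TSS, signed by the strand of its gene. Samples were grouped by the genotype in the labels, and replicate numbers only name libraries. With 1 long list a genotype nothing was tested between genotypes: shares have 95% Wilson intervals, densities exact Poisson intervals, and lists are set beside all promoter peaks. Genes were named when they belonged to a textbook list with a member window, to the 6 strongest members of a long list, to members that overlapped a short list, or to windows with 2 sites (up to 12 genes for the last rules). Others (the noncoding genes, name-class examples, copies, Fn1, Cycs, Lmcd1, Myl6, Rbpms, Fbln2 and Mylk) were chosen after their values were seen. The members and the gene lists were chosen with earlier results of these data known. The searches were tested on simulated sequence. Tools were Python 3.11.15, pandas 2.3.3, numpy 2.4.6, scipy 1.17.1, pysam 0.24.0 and matplotlib 3.10.9. Alternatives changed the q threshold, window, TSS distance, TSS set, list size and overlap, and left out a library.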

Additional observations from a re-analysis of the deposited data

How the results depend on the processing

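Of 172 alternative values for the main results 135 stayed close to the reported one, within its error for a share and within a factor of 1.5 for a count. Whether a result changed direction was not evaluated value by value. The upstream excess was not kept when the VEDS male library was left out, where the share went from 79.8% to 50% with 4 members. Requiring −log10 q of at least 10 raised the share of promoter peaks with a CRE to 4.67% (control female) and 3.91% (VEDS male), the overlap with the other long list to 100% and 89.9%, and control female upstream sites to 84.3%, and at 5 or more the overlap was 100% and 85.4%. A 200 bp window gave shares of 3.62% and 2.87%, with 46.2% and 54.2% of sites 20 to 40 bp from the summit. In the VEDS male list the share was 3.75% over whole peaks, 2.82% with TSSs up to 3 kb, 3.59% with coding TSSs only and 3.98% at equal list size. Sites within 200 bp of a TSS were then 83.1% over whole peaks, 91.0% with TSSs up to 500 bp and 81.7% up to 3 kb (83.8% in the control female). At equal list size the overlap was 96.2% and 90.7%, and when 50% of both peaks had to be shared it was 67.9% and 56.6%, where peak widths differ between lists. All overlap shares at these alternative settings are of members alone. The share over all promoter peaks was not computed there, so they do not show whether members differ from other promoter peaks. Leaving out the control female library leaves the control male list, with 6 members, 2.25% of promoter peaks, 100% overlap, 83.3% of sites near a TSS, 83.3% at coding genes, 33.3% at 20 to 40 bp and 66.7% upstream. Leaving out the VEDS male leaves the VEDS female list, with 4 members, 1.62%, 100%, 100%, 75%, 25% and 50% in that order. The alternatives for the summit distance and the upstream share were added after the data were seen. Of the 46 genes named in the VEDS male list 43 remained at −log10 q of at least 10 (Areg, Csnk1e and Ppargc1a did not), and 33 of 41 in the control female list (Creb5, Csnk1d, Gem, Pde7a, Polb, Rnf44, Zfp273 and Zfp593 did not). The 200 bp window kept 39 (Ppp1r15a and Sik1 were among the lost) and 35. The cause of these shifts was not tested. No paired analysis was possible because the long lists share no replicate number and no test was made. Openness below the peak threshold cannot be read from these lists.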

Other observations

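Downstream of the TSS the density of CREs was lowest from 75 to 200 bp and higher beyond, with intervals that in part overlap. From 300 to 500 bp downstream the control female windows held 10 sites (1.55 per 10000 searched positions, 0.743 to 2.85) and the VEDS male windows 13 (0.809, 0.431 to 1.38). Zinc finger genes made up 4 of the 10 (Zfp119b, Zfp273, Zfp619 and Zfp963) and 3 of the 13 (Zfp619, Zfp868 and Zfp938). Others were Mnt, a repressor that pairs with MAX, at 376.5 bp in both lists, and Nfatc1, a calcineurin-regulated factor, at 434.5 bp in the VEDS male alone. The range was chosen after the densities were seen and was not tested.

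Member peaks kept about the same order in both long lists as other promoter peaks did. Spearman's correlation of the ranks was 0.81 over 415 overlapping member peaks and 0.83 over 9682 others, as a description across peaks that share libraries.

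Full CREs away from promoters were rarer, with 125 peaks in the control female list (1.20% of non-promoter peaks) and 233 in the VEDS male list (0.927%). Of these VEDS male peaks 49.4% (43.0 to 55.7) overlapped a control female peak, against 36.9% (36.4 to 37.6) of the other VEDS male peaks away from promoters. In the control female list 96.8% (92.1 to 98.7) overlapped a VEDS male peak, against 92.1% (91.6 to 92.6).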
